A study of Mus musculus with 20 samples.

Results

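The egress genes described here are Klf2, S1pr1, S1pr4, S1pr2, Gpr183 and Cd69, 6 of the 30199 gene names on the array. They were taken by symbol, with earlier results of these data known. Each had 1 probe, and all 6 were well above background on all 20 arrays and so passed the filter on dim probes. Sorted CD4 T cells of B6.Cg-Foxp3<tm1Mal> mice, in which GFP marks Foxp3+ cells, were measured on single-colour arrays in 12 groups. Every sample is labelled as a pool of 8 to 15 mice of mixed sex, 8 to 14 weeks old, and lay on 1 array, and no source used here says which pools shared animals, so each p-value measures the spread between arrays. Peripheral lymph nodes (pLN) were taken on day 12 (d12, 2 arrays a group) or day 25 (d25, 1 array a group) after subcutaneous immunisation with keyhole limpet haemocyanin (KLH) in Alum, while Peyer's patches (PP, 2 arrays a group) are labelled with neither immunisation nor day. All cells were sorted as B220-CD4+. Naive cells were GFP-PD1-GL7-, follicular helper (TFH) cells GFP-PD1hiGL7+, Treg cells GFP+PD1-GL7- and follicular regulatory (TFR) cells GFP+PD1hi with or without GL7. PP TFH cells were also sorted as GL7-, and CXCR5 was not part of the gates.

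T cells leave lymphoid organs by following sphingosine-1-phosphate (S1P), which is abundant in blood and lymph and scarce in tissue, through the receptor S1PR1. The transcription factor KLF2 keeps the S1pr1 gene on in resting T cells and is lost upon activation. S1PR2 signals through G proteins of the G12/13 class, which restrain migration, and holds cells in the germinal centre, GPR183 (EBI2) draws cells to oxysterols at the follicle's outer border, and CD69 binds S1PR1 and takes it off the surface.

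Log2 normalised intensities were compared in 1 linear model over all arrays (limma), and a gene was called where the adjusted p was under 0.05 over 22264 probes and the log2 difference at least 1. Of 114 differences (6 genes in 19 comparisons), 24 were called and 48 were smaller than 0.5, between -0.44 and 0.47 with none called, and these are not listed one by one. The arrays lay on 5 slides, each with the 4 groups of 1 tissue and day. Slides 1 and 4 received 50 ng of RNA per array and the others 40 ng, so slide and input cannot be told apart. Cd3e was between 98531 and 135816 in all groups, and Foxp3 between 16326 and 32489.5 in Treg and TFR groups against 27 to 158 in the others. The 4 tested of 5 T cell markers summed to between 336259 and 659556 per array. The 5 Treg markers summed to between 58481 and 109464 in Treg and TFR arrays. Their sums were 13579 to 20658 in TFH and 963 to 1225 in naive arrays. Sums of the 6 follicular markers were 321410 to 633691 in TFH and 140315 to 487609 in TFR arrays. They were 36771 to 88194 in Treg and 20165 to 21403 in naive arrays. The arrays of slide 4, the replicate 1 of every PP group, stood apart in transcripts of B cells and epithelial cells. The 12 tested of 13 B cell markers summed to between 23893 and 167655 there and to between 4749.6 and 21885 on the other 16 arrays. The 6 tested of 7 epithelial markers summed to between 2772 and 7146 there and to between 397 and 2350.0 elsewhere. Sums of myeloid and dendritic cell markers overlapped, with 2407 to 5590 on slide 4 and up to 4242 elsewhere. So did those of germinal centre B cell markers, with 9905 to 14442 on slide 4 and up to 13218 elsewhere. Values without slide 4, or from slide 5 alone, are given beside the PP results they change. In these bulk samples, fewer cells that express a gene and less RNA per cell cannot be told apart.

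**Figure D1:**
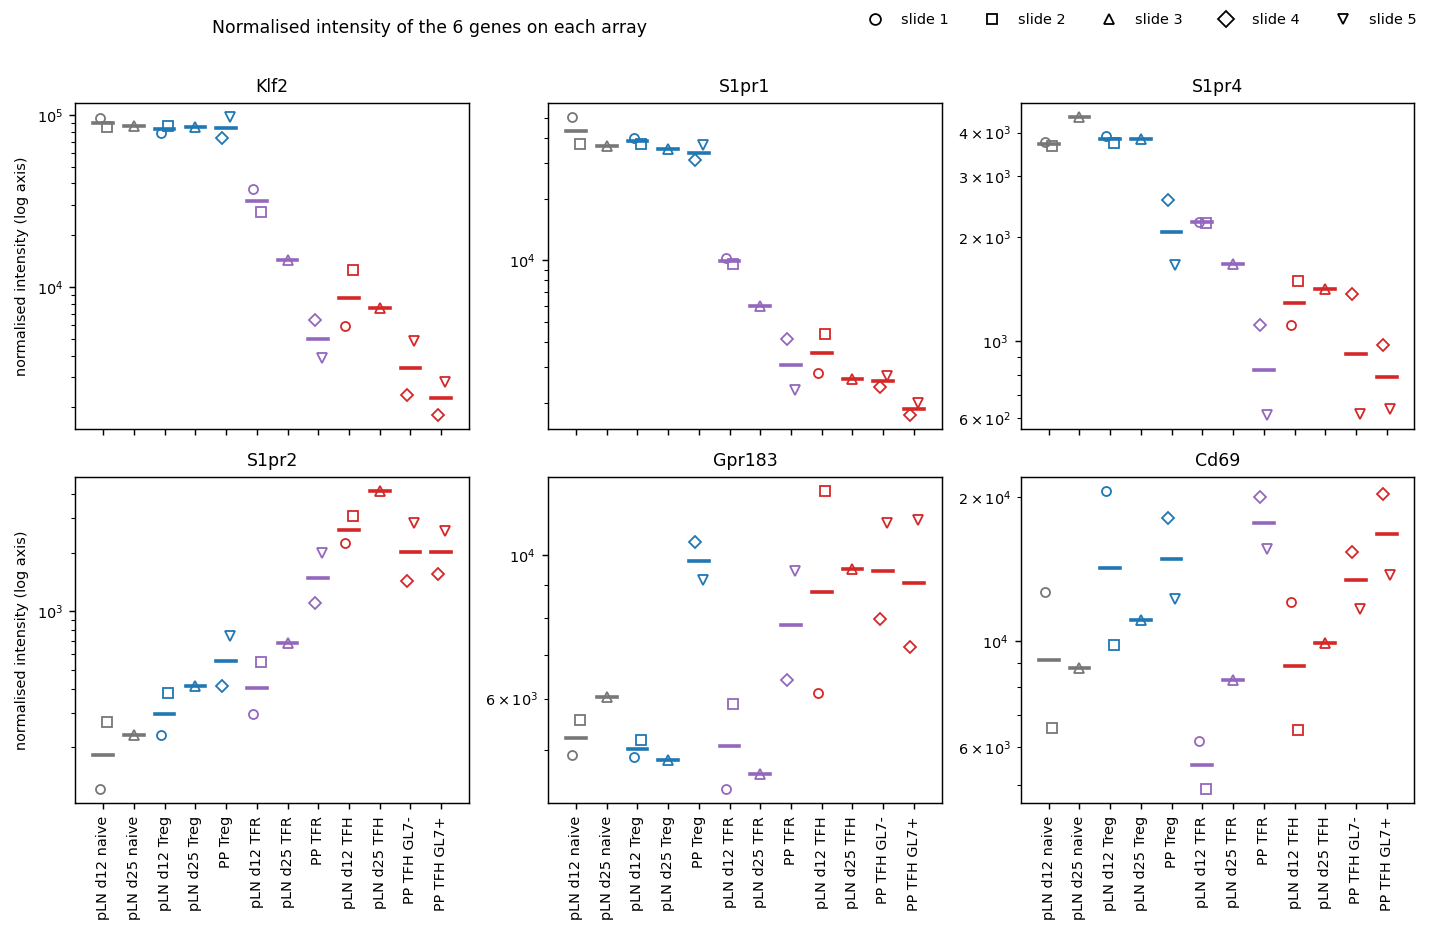
Normalised intensity (log axis) of each gene on each of the 20 arrays, by group. Marks are arrays, shaped by slide, and bars are geometric means of the group. Klf2 and S1pr1 are high in all naive and Treg arrays and lower in all TFR and TFH arrays, S1pr2 is highest in the TFH groups, and Gpr183 and Cd69 spanned 2.13-fold and 3.21-fold.

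Klf2 had the widest span of the 6 genes, 40.1-fold between the highest and lowest group. Its probe lay on chromosome 8, 74845137 to 74845196, plus strand (mm9, as for all probes here). In pLN d12, it read 95700.3 and 85264 in naive cells, 78874 and 86605 in Treg cells, 37163 and 27296 in TFR cells and 5952 and 12611 in TFH cells. On d25, it read 86101 in naive, 84680.2 in Treg, 14466 in TFR and 7579 in TFH cells. In PP, it read 73713 and 96749 in Treg cells, 6452 and 3891 in TFR cells, 2363 and 4887 in GL7- TFH cells and 1815 and 2801 in GL7+ TFH cells. All 8 naive and Treg arrays lay above all 12 follicular arrays. Within the follicular arrays, both pLN d12 TFR arrays were highest, and PP TFR overlapped with GL7- TFH but not with GL7+ TFH cells. In the order of the 12 group means, neighbours were further apart than 2 residual SD, without overlapping arrays, at 2 places, between the naive and Treg groups and pLN d12 TFR (1.38 on the log2 scale) and between pLN d12 and d25 TFR (1.14). All other neighbours lay within their spread. The d25 TFR group is 1 array on another slide, and its difference from d12 was not called in the linear model.

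S1pr1, the egress receptor, spanned 23.0-fold (chromosome 3, 115414020 to 115414079, minus strand). In pLN d12, it read 50214 and 37063 in naive cells, 39698 and 37291 in Treg cells, 10223 and 9619.8 in TFR cells and 2816 and 4381 in TFH cells. On d25, it read 36567 in naive, 35062 in Treg, 5983 in TFR and 2613 in TFH cells. In PP, it read 31030.0 and 36634 in Treg cells, 4105 and 2304 in TFR cells, 2393 and 2727 in GL7- TFH cells and 1754 and 2011 in GL7+ TFH cells. The naive and Treg arrays formed 1 high set, as for Klf2. Gaps beyond 2 residual SD, without overlapping arrays, lay between PP Treg and pLN d12 TFR (1.77) and between pLN d12 and d25 TFR (0.73). A further such gap lay between d25 TFR and pLN d12 TFH (0.77). The d25 TFR group is 1 array with no spread of its own, and its difference from d12 was not called in the linear model. PP TFR arrays lay on both sides of the pLN d25 TFH array.

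S1pr4, a receptor of the same family that is mostly found on lymphoid cells, spanned 5.61-fold (chromosome 10, 80961501 to 80961560, minus strand). In pLN d12, it read 3761 and 3663 in naive cells, 3916 and 3737 in Treg cells, 2215 and 2196 in TFR cells and 1118 and 1494 in TFH cells. On d25, it read 4420.1 in naive, 3842 in Treg, 1667 in TFR and 1414 in TFH cells. In PP, it read 2560.3 and 1661 in Treg cells, 1115 and 615 in TFR cells, 1366 and 616 in GL7- TFH cells and 974 and 637 in GL7+ TFH cells. Within each tissue and day, the naive and Treg groups had higher means than the follicular groups, but no gap between neighbours exceeded their spread.

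S1pr2, the retention receptor, had its highest group means in TFH cells and spanned 22.7-fold (chromosome 9, 20770729 to 20770788, minus strand). In pLN d12, it read 123 and 269 in naive cells, 232 and 378 in Treg cells, 298 and 548 in TFR cells and 2229 and 3065 in TFH cells. On d25, it read 232 in naive, 411 in Treg, 686 in TFR and 4123 in TFH cells. In PP, it read 414 and 747 in Treg cells, 1104 and 1979.7 in TFR cells, 1423 and 2839 in GL7- TFH cells and 1547 and 2591 in GL7+ TFH cells. All TFH arrays and both PP TFR arrays lay above every naive, Treg and pLN TFR array. The naive values were the lowest of any of the 6 genes, but still well above background. No gap between neighbours in the order of group means exceeded their spread.

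For Gpr183 and Cd69, the order of the cell types by group means differed between pLN and PP. Gpr183, the oxysterol receptor, spanned 2.13-fold (chromosome 14, 122351881 to 122351940, minus strand). In pLN d12, it read 4903 and 5563 in naive, 4868 and 5183 in Treg, 4354 and 5884 in TFR and 6133 and 12567 in TFH cells. On d25, it read 6039 in naive, 4828 in Treg, 4588 in TFR and 9518 in TFH cells, and in PP it lay between 6423 and 11359 in all 4 groups. Within pLN, all TFH arrays lay above all naive, Treg and TFR arrays. All 4 PP groups also lay above all pLN naive, Treg and TFR arrays. Cd69, the S1PR1 antagonist, spanned 3.21-fold (chromosome 6, 129217697 to 129217756, minus strand). In pLN d12, it read 12649 and 6588 in naive, 20574 and 9802 in Treg, 6161 and 4909.8 in TFR and 12089 and 6499 in TFH cells. On d25, it read 8791 in naive, 11085 in Treg, 8281 in TFR and 9914 in TFH cells. In PP, it read 18067 and 12243 in Treg, 20004 and 15599 in TFR, 15368 and 11687 in GL7- TFH and 20323 and 13768 in GL7+ TFH cells. The pLN d12 TFR arrays were the lowest of all 20, and replicates of other pLN d12 groups overlapped. No neighbours in the order differed beyond their spread for either gene.

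Since Klf2 and S1pr4 moved together across groups and S1pr2 moved against them, the stretches upstream of their starts are shown. RefSeq promoters (GRCm38.p6) matched 4 of the 6 genes, Klf2, S1pr2, S1pr4 and Gpr183, and the 250 bases before each start are given here, 5′ to 3′ on the gene's strand. They lie at chr8:72318812-72319061 (plus strand) for Klf2, chr10:81500138-81500387 (minus) for S1pr4 and chr9:20976794-20977043 (minus) for S1pr2. Capitals mark 4 motifs searched on both strands, the KLF core CACCC, the GC box GGGCGG, the FOXO motif TGTTTAC and the core of the cAMP response element, TGACG.
Klf2: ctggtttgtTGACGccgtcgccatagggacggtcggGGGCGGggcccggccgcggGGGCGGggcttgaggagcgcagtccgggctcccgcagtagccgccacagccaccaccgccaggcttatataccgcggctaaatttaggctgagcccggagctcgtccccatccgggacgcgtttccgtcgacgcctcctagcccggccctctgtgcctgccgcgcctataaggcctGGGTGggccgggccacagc
S1pr4: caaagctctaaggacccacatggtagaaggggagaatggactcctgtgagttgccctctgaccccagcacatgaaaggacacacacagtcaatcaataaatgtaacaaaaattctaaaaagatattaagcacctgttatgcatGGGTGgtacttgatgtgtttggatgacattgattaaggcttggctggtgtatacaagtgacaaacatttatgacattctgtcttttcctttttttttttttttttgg
S1pr2: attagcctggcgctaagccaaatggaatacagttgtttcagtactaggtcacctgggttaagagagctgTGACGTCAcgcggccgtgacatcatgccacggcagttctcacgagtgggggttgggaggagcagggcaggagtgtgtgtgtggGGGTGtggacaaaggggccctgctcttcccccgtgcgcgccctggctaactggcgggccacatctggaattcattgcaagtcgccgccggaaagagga

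The Klf2 stretch held 2 GC boxes (32.7% of the 32851 promoters of the table hold at least 1), 1 KLF core (52%) and 1 cAMP core (17.8%). S1pr4 held 1 KLF core and no other motif. S1pr2 held 1 KLF core and, as TGACGTCA, 2 overlapping cAMP cores on opposite strands. None of the 4 stretches, that of Gpr183 included, held the FOXO motif (3.17%). The G and C content was 71.2% for Klf2, 59.2% for S1pr2, 38.8% for S1pr4 and 32% for Gpr183, against a median of 52.4% over the table. A match of letters describes the stretch and names no bound site.

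In the 8 groups of 2 arrays, 1 array received 50 ng and the other 40 ng, and 2 genes moved with this in every group. Cd69 was higher on the 50 ng array in 8 of 8 groups, by a median of 0.56 on the log2 scale (0.33 to 1.07). S1pr2 was lower on the 50 ng array in 8 of 8 groups, with a median difference of -0.85 (-1.13 to -0.46). Gpr183 was lower there in 7 of 8 groups, S1pr4 higher in 7 of 8, Klf2 higher in 3 of 8 and S1pr1 higher in 4 of 8. The fit with slide as a block is given below where it changes a call.

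**Figure D2:**
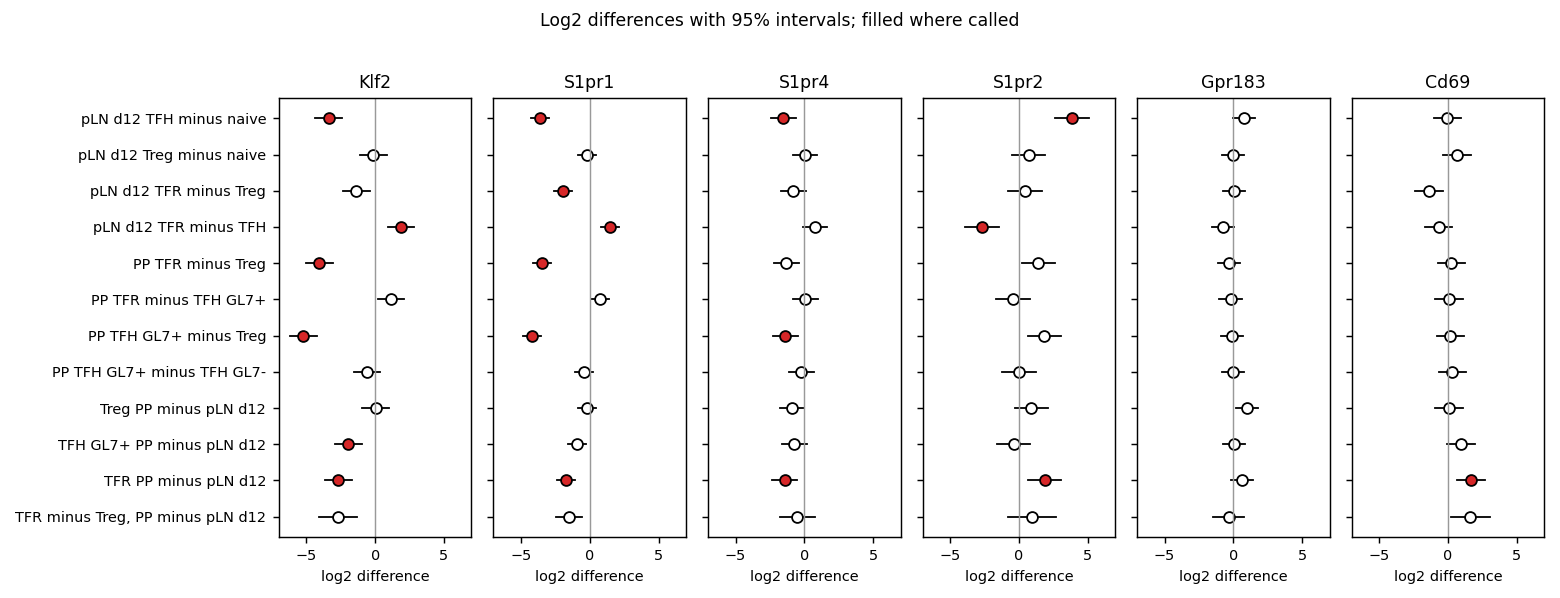
Log2 difference (first minus second group) of each gene in 12 of the comparisons, with the 95% interval of the linear model. Filled marks were called. Filled marks lie left of 0 for Klf2 and S1pr1 wherever a TFH group is set against naive or Treg cells, and Gpr183 has none.

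The first comparison asks how TFH cells differ from naive cells of the same nodes. In pLN d12, 4 of the 6 genes were called, against 14.7% of all tested probes. Klf2 was 10.4-fold lower in TFH cells (log2 difference -3.38, SE 0.44, adjusted p 0.000386), and S1pr1 was 12.3-fold lower (-3.62, SE 0.29, adjusted p 2.1e-05). S1pr4 was 2.87-fold lower (-1.52, SE 0.40, adjusted p 0.0235), a call that was lost without any 1 of the 4 arrays (adjusted p 0.0501 without TFH replicate 2, 0.141 without TFH replicate 1, 0.0814 without naive replicate 2 and 0.111 without naive replicate 1). S1pr2 was 14.4-fold higher (3.85, SE 0.55, adjusted p 0.000669). The difference of S1pr2 was 4.18 on slide 1 and 3.51 on slide 2. Gpr183 was not called (0.75, 95% interval -0.05 to 1.55), but without TFH replicate 1 it was (1.27, adjusted p 0.0474). On d25, 3 genes were called against 8.72% of probes, and the single arrays of these groups were assumed to vary like the others. Klf2 differed by -3.51, S1pr1 by -3.81 and S1pr2 by 4.15 (adjusted p 0.00539, 0.000323 and 0.00715). S1pr4 differed by -1.64 and was not called (adjusted p 0.124). It passed with slide as a block or without slide 4, but both leave this difference as it was and change only the shared spread.

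Treg and naive cells of pLN d12 share the PD1-GL7- gate and differ in GFP. None of the 6 genes was called between them, where 3.76% of probes were. The 95% intervals reached from -1.11 to 0.85 for Klf2 and from -0.82 to 0.49 for S1pr1. The differences of S1pr2 (0.71) and Cd69 (0.64) had adjusted p 0.95 and 0.887.

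TFR cells were then set against Treg cells, the comparison within the Foxp3+ lineage. In pLN d12, 1 gene was called against 8.35% of probes. S1pr1 was 3.88-fold lower in TFR cells (-1.96, SE 0.29, adjusted p 0.00223), with -1.96 on slide 1 and -1.95 on slide 2. Klf2 differed by -1.38 (SE 0.44, adjusted p 0.0749), by -1.09 on slide 1 and -1.67 on slide 2, and passed with slide as a block (adjusted p 0.0361). Cd69 differed by -1.37 (adjusted p 0.0855), and it too passed with slide as a block (adjusted p 0.000545), with -1.74 on slide 1 and -1.0 on slide 2. S1pr4 differed by -0.79 (adjusted p 0.288). S1pr2 was not called, with a 95% interval of -0.77 to 1.67. On d25, 2 genes were called against 5.3% of probes, Klf2 (-2.55, adjusted p 0.0432) and S1pr1 (-2.55, adjusted p 0.00749). S1pr4 (-1.20, adjusted p 0.342) passed with slide as a block. The d25 arrays lay on the same slide, so the block changes only the shared spread for them. Without slide 4, which holds none of these arrays but enters the shared spread, the d25 call of Klf2 was lost (adjusted p 0.0676).

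In PP, Klf2 and S1pr1 were lower in TFR than in Treg cells by a wider margin. Of the 6 genes, 2 were called against 9.25% of probes. Klf2 was 16.9-fold lower (-4.08, SE 0.44, adjusted p 0.000265), by -3.51 on slide 4 and -4.64 on slide 5. S1pr1 was 11-fold lower (-3.45, SE 0.29, adjusted p 7.87e-05), by -2.92 and -3.99. S1pr4 differed by -1.32 (adjusted p 0.064) and S1pr2 by 1.41 (adjusted p 0.144), and both passed with slide as a block (adjusted p 0.000512 and 0.000226). S1pr4 also passed without slide 4 (-1.43, adjusted p 0.037). PP TFR cells had the highest B cell marker sum on slide 4 (167655), but not on slide 5 (13414). The part of such transcripts in the differences between PP TFR and Treg cells was not tested.

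The change from Treg to TFR cells was compared between tissues by an interaction term. Klf2 differed between PP and pLN d12 by a further -2.70 (SE 0.62, 95% interval -4.08 to -1.32), S1pr1 by -1.5 and Cd69 by 1.62. None was called, with adjusted p 0.115, 0.207 and 0.484, where 0.548% of probes were. With slide as a block, Klf2 (adjusted p 0.036) and Cd69 (adjusted p 0.00885) passed and S1pr1 did not.

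**Figure D3:**
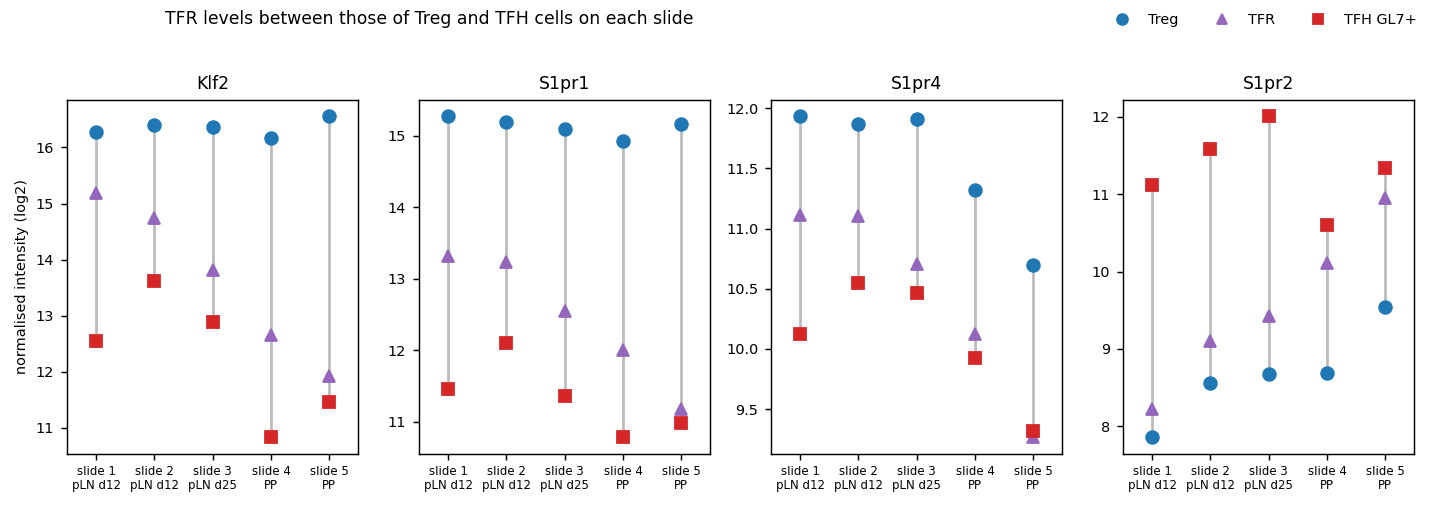
Log2 normalised intensity in Treg, TFR and GL7+ TFH cells of the same slide, for the 4 genes called in most comparisons. Grey lines join Treg and TFH cells. TFR marks for Klf2 lie 29.1% and 59.9% of the way from Treg to TFH on the pLN d12 slides and 65.8% and 90.7% on the PP slides.

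TFR cells lay between Treg and TFH cells of their own slide in 19 of 20 readings of Klf2, S1pr1, S1pr4 and S1pr2. As a share of the log2 distance from Treg to GL7+ TFH cells, Klf2 lay at 29.1% and 59.9% in pLN d12, at 73.2% on d25 and at 65.8% and 90.7% in PP. S1pr1 lay at 51.3% and 63.3% in pLN d12, at 68.1% on d25 and at 70.4% and 95.3% in PP. S1pr4 lay at 45.4% and 58.0% in pLN d12, at 83.6% on d25 and at 86.0% and 103.7% in PP. S1pr2 kept close to Treg cells in pLN, at 11.1%, 17.7% and 22.3%, and lay at 74.4% and 78.4% in PP. Gpr183 and Cd69 lay outside the stretch between Treg and TFH cells on most slides. Gpr183 lay at -48.3% and 14.3% in pLN d12, at -7.5% on d25 and at 131.0% and 15.3% in PP. Cd69 lay at 226.8% and 168.2% in pLN d12, at 261.1% on d25 and at 86.6% and 206.4% in PP. These shares are a description and carry no test.

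The difference between TFR and TFH cells was called for 3 genes in pLN d12, against 5.01% of probes. Klf2 was 3.68-fold higher in TFR cells (1.88, SE 0.44, adjusted p 0.0324), S1pr1 2.82-fold higher (1.5, SE 0.29, adjusted p 0.0135) and S1pr2 6.47-fold lower (-2.69, SE 0.55, adjusted p 0.0161). These calls were less firm than their sizes. Without TFH replicate 1, none held (adjusted p 0.265, 0.131 and 0.0701), and none held without TFR replicate 1 (0.222, 0.0977 and 0.15). Without TFR replicate 2, S1pr2 alone held (0.0929 for Klf2 and 0.0731 for S1pr1), and without TFH replicate 2 S1pr2 was lost (0.0887). Without slide 4, Klf2 (0.0579) and S1pr2 (0.0505) were lost, although none of the compared arrays lay there. All 3 differences kept their sign and lay at 1.11 or more in size on both slides. In PP, none of the 6 genes was called between TFR and GL7+ TFH cells, where 3.44% of probes were. There Klf2 differed by 1.15 (95% interval 0.17 to 2.13, adjusted p 0.287) and S1pr1 by 0.71 (0.06 to 1.36, adjusted p 0.352). On slide 4, Klf2 differed by 1.83 and S1pr1 by 1.23, and on slide 5 by 0.47 and 0.20. The interval of S1pr2 was -1.66 to 0.78.

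How the follicular change of the helper lineage differs from that of the regulatory lineage in pLN d12 was tested as TFH minus naive less TFR minus Treg. None of the 6 genes was called, where 2.18% of probes were. S1pr2 came closest (3.40, SE 0.77, adjusted p 0.0566), passed without naive replicate 2 (adjusted p 0.0464) and passed with slide as a block (0.000135). S1pr1 differed by -1.66 (adjusted p 0.0845, and 0.0489 with the block), Klf2 by -2.01 (0.197) and Cd69 by 1.33 (0.617, and 0.0105 with the block).

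Within PP, GL7+ TFH and Treg cells differed in 3 genes, against 9.87% of probes. Klf2 was 37.4-fold lower in TFH cells (-5.23, SE 0.44, adjusted p 3.93e-05) and S1pr1 18.0-fold lower (-4.17, SE 0.29, adjusted p 1.36e-05). S1pr4 was 2.62-fold lower (-1.39, SE 0.40, adjusted p 0.0488), a call that was lost without any 1 of the 4 arrays (adjusted p 0.0743 without Treg replicate 2, 0.0781 without TFH replicate 1, 0.227 without Treg replicate 1 and 0.262 without TFH replicate 2). S1pr2 differed by 1.85 (adjusted p 0.0524, and 4.97e-05 with slide as a block), by 1.90 on slide 4 and 1.79 on slide 5. GL7+ and GL7- TFH cells of PP differed in none of the 6 genes. In that comparison, 0.00898% of probes were called and 254 had an unadjusted p under 0.05. The interval of Klf2 was -1.57 to 0.39 and that of S1pr1 -1.10 to 0.21. The methods' t-test put none of the 6 genes under an unadjusted p of 0.05.

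Between tissues, TFR cells differed most. No slide held both tissues, and only pLN samples are labelled as immunised. In every comparison of TFR, TFH or Treg cells between tissues, tissue therefore cannot be told apart from slide or immunisation. In PP against pLN d12 TFR cells, 5 of the 6 genes were called, against 11.1% of probes. Klf2 was 6.36-fold lower (-2.67, SE 0.44, adjusted p 0.00348) and S1pr1 3.22-fold lower (-1.69, SE 0.29, adjusted p 0.00455) in PP. S1pr4 was 2.66-fold lower (-1.41, SE 0.40, adjusted p 0.0397), while S1pr2 was 3.66-fold higher (1.87, SE 0.55, adjusted p 0.0431) and Cd69 3.21-fold higher (1.68, SE 0.45, adjusted p 0.031). The PP and pLN d12 arrays did not overlap for these 5 genes. Gpr183 was not called (0.62, adjusted p 0.295).

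The calls of Klf2 and S1pr1 between the TFR cells held without any single array, and those of the other genes did not. Cd69 was lost without any 1 of the 4 arrays (adjusted p 0.0758 without PP replicate 2, 0.0967 without pLN replicate 1, 0.144 without PP replicate 1 and 0.153 without pLN replicate 2). S1pr2 was likewise lost (0.0642 without PP replicate 1, 0.0668 without pLN replicate 2, 0.201 without PP replicate 2 and 0.245 without pLN replicate 1). S1pr4 was lost without pLN replicate 2 (0.141), pLN replicate 1 (0.153) or PP replicate 2 (0.21). With slide as a random block, S1pr1 was lost (adjusted p 0.0664). Without slide 4, with its B cell transcripts, S1pr2 differed by 2.29 (adjusted p 0.0808) and Cd69 by 1.5 (0.206), while Klf2, S1pr1 and S1pr4 held. The part of the B cell transcripts in these differences was not tested.

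GL7+ TFH cells differed between tissues in 1 gene, against 4.54% of probes. Klf2 was 3.84-fold lower in PP (-1.94, SE 0.44, adjusted p 0.0319). This call was lost without pLN TFH replicate 2 (-1.40, adjusted p 0.187), PP TFH replicate 1 (-1.63, 0.219) or PP TFH replicate 2 (-2.25, 0.0767), in the fit that leaves out slide 4 (-1.63, 0.161) and in that with a random slide effect (0.225). S1pr1 differed by -0.90 (adjusted p 0.11) and Cd69 by 0.92 (0.308). Treg cells differed in none of the 6 genes, where 2.24% of probes were called. Gpr183 differed by 0.96 between them (adjusted p 0.238), S1pr2 by 0.91 and S1pr4 by -0.89. Comparisons that use the same Treg, TFR or TFH arrays are not independent of each other.

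Day 25 was set against day 12 in each pLN cell type. None of the 6 genes was called in any of the 4 types, and at most 0.0314% of probes were, in TFH cells (635 with an unadjusted p under 0.05). In TFR cells, Klf2 differed by -1.14 (95% interval -2.34 to 0.06), S1pr1 by -0.73 (-1.53 to 0.07) and S1pr2 by 0.76 (-0.73 to 2.26). The d25 arrays lay on a slide of their own, and their day cannot be told apart from that slide.

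Across the 12 group means, the genes most like Klf2 were Cd47 (Pearson r 0.987), Eef1e1 (0.987) and Rpl30 (0.985). Those most like S1pr1 were Rasa3 (0.994), Rps19 (0.993) and 1700025G04Rik (0.993). Those most like S1pr2 were Fam210a (0.987), H2al1e (0.984) and Dus2 (0.983), and those most like S1pr4 were Pdlim1 (0.993), Nrros (0.991) and Surf2 (0.990). Gpr183 was most like Hpgds (0.931), Ppp1r14bl (0.922) and Gdpd1 (0.920), and Cd69 most like Phf23 (0.923) and H2-M2 (0.916). Klf2 and S1pr1 correlated at 0.982 with each other, S1pr4 at 0.951 with Klf2, and S1pr2 at -0.873 with Klf2 and -0.909 with S1pr1. The points share arrays and slides, so these values are a description.

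The other genes of the pathway were taken as 6 lists of 50 genes, of which 42 were tested. The signal list held 15 G proteins and regulators of these receptors, all tested. In pLN d12 TFH against naive cells, 4 were higher and 1 lower, against 14.7% of all probes called in either direction, with a list median of 0.08 against -0.09 over all tested probes. Rgs16, which shortens signals of Gi- and Gq-coupled receptors, read between 4427 and 16561 in TFH cells and between 52 and 86 in naive cells, where 1 of 2 arrays was above background (log2 difference 7.0, SE 0.54, adjusted p 1.6e-05). It was also higher in TFR than in Treg cells, by 2.56 in pLN d12 (adjusted p 0.013) and 3.93 in PP (0.0011), and its highest level was in PP TFR cells, 22189 and 23305. Gnaq, a G protein alpha chain, was not well above background on either naive array and at least 6.29-fold higher in pLN d12 TFH cells (adjusted p 0.000905). Rgs1, a related regulator, was higher in TFH than in naive cells (2.82, adjusted p 0.00391). Its group means were highest in Treg cells, between 20908 and 25300, and between 8128 and 18150 in TFR cells, a difference not called in pLN d12 or PP.

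From Treg to TFR cells, 1 of the 15 signal genes was higher in pLN d12, where 8.35% of all probes were called (list median 0.12 against -0.08 over all), and 4 were higher in PP, where 9.25% were (0.23 against -0.05). In PP, these included Gna12, a G12/13-class chain of the kind S1PR2 uses, at 12760.4 and 13645 in TFR against 3062 and 4643 in Treg cells (1.81, SE 0.29, adjusted p 0.00247), and Gnaq (1.85, adjusted p 0.0224). Between tissues, 3 of 15 were higher in PP TFR cells, against 11.1% of all probes called (list median 0.49 against 0.00), among them Rgs16 (2.31, adjusted p 0.0173) and Gna12 (1.33, 0.0121). Both probes of Gna12 were called in the PP and in the TFR comparison.

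The list of S1P synthesis, breakdown and transport had 7 tested of 10 genes. Plpp1, a phosphatase that removes the phosphate of S1P and other lipids, read 2024 and 2185 in pLN d12 TFR cells, 2583 on d25 and 1081 and 1086 in PP TFR cells, above all other groups (at most 924). Against Treg cells, it was higher in TFR cells by 2.51 in pLN d12 (SE 0.34, adjusted p 0.00131) and by 2.01 in PP (0.00342), and both of its probes were called. Its relative Plpp2 was higher in pLN d12 TFR cells (1.29, adjusted p 0.00646) and differed by 0.70 in PP (0.0929). These 2 were the list's calls for TFR against Treg cells in pLN d12, and Plpp1 was the list's call in PP and, against naive cells, in pLN d12 TFH (3.01, adjusted p 0.000146, with 1 of 2 naive arrays above background). Of all probes, 8.35%, 9.25% and 14.7% were called in these comparisons. The list medians were -0.05 in pLN d12 and 0.09 in PP for TFR against Treg cells, against -0.08 and -0.05 over all tested probes. Of the other S1P receptors, 1 of 2 was tested and not called.

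Of the 4 genes of oxysterol synthesis and breakdown, 1 was tested, Hsd3b7, whose enzyme breaks down the ligands of GPR183. It read between 887 and 1034 in pLN d12, 1228 on d25 and between 755 and 1026 in PP TFR cells, and at most 459.8 in every other group. TFR exceeded Treg cells by 1.33 in pLN d12 (SE 0.34, adjusted p 0.0295) and by 1.37 in PP (0.0244).

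The homing list held 9 genes tied to KLF2 and FOXO1, all tested. In pLN d12 TFH against naive cells, 6 were lower and 2 higher, with a list median of -1.76 against -0.09 over all tested probes, of which 14.7% were called. Ccr7, which brings cells into lymph nodes, differed by -3.70, the survival receptor Il7r by -4.35 and the follicle-homing receptor Cxcr5 by 6.39 (adjusted p 4.76e-05, 0.000472 and 1.53e-06). From Treg to TFR cells, 1 was lower and 1 higher in pLN d12 (median -0.81 against -0.08 over all probes, 8.35% of them called), and 5 were lower and 1 higher in PP (median -1.94 against -0.05, 9.25% called). Ccr7 was lower in both, with -1.63 (0.0126) and -3.38 (0.000191). Between tissues, TFR cells of PP had less Ccr7 (-1.83, adjusted p 0.00645) and more Cxcr5 (2.63, 0.000907) than those of pLN d12, with 3 of 9 lower and 1 higher (median -1.06 against 0.00 over all probes, 11.1% called).

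Of 10 other KLF factors, 9 were tested. In pLN d12 TFH against naive cells, 3 were lower and 1 higher (median -0.57 against -0.09 over all probes, 14.7% called), with Klf6 at -1.36 (adjusted p 0.000322), Klf13 at -1.60 (0.000967) and Klf10 at 1.27 (0.00754). From Treg to TFR cells, 3 were lower and 1 higher in pLN d12 (median -0.09 against -0.08 over all probes, 8.35% called) and 2 lower and 1 higher in PP (median -0.46 against -0.05, 9.25% called). Klf6 read between 16652 and 20713 in all Treg arrays and between 4731 and 10842 in all TFR arrays, and was lower in TFR cells, with log2 differences of -1.21 in pLN d12 (adjusted p 0.00171) and -1.77 in PP (0.000147). Klf13 was lower as well, with -1.06 and -1.05 (adjusted p 0.0183 and 0.018). Klf12 was not well above background in Treg cells and at least 2.14-fold higher in pLN d12 TFR cells, on 1 of 2 arrays above background, and at least 1.74-fold higher in PP TFR cells (adjusted p 0.00446 and 0.0224). Between TFR cells of the 2 tissues, none of the 9 was called (median -0.31 against 0.00 over all probes, 11.1% called).

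**Figure D4:**
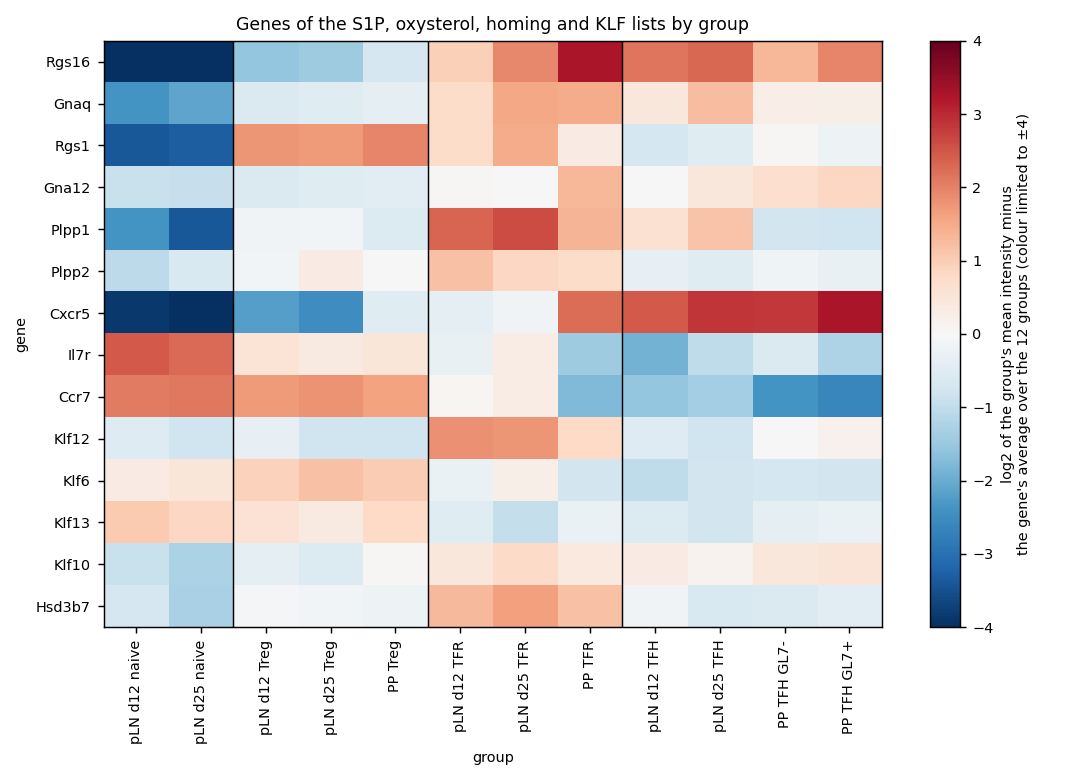
Log2 of each group's mean intensity minus the gene's average over the 12 groups, for 14 genes of the pathway lists, with colours limited to 4 in either direction. Plpp1, Plpp2 and Hsd3b7 are highest in the 3 TFR groups, while Ccr7 is lowest in the PP follicular groups.

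Of the named pathway calls, 9 of 10 in pLN d12 TFH against naive cells held without any single array, and the exception was Klf10 (0.93, adjusted p 0.0604 without naive replicate 2). In pLN d12 TFR against Treg cells, 2 of 9 held, Plpp1 and Klf6. There, the highest adjusted p was 0.0544 for Plpp2 without Treg replicate 1, 0.116 for Rgs16, 0.062 for Cxcr5 and 0.051 for Klf12 without Treg replicate 2, and 0.155 for Hsd3b7, 0.0891 for Ccr7 and 0.144 for Klf13 without TFR replicate 2. In PP, 6 of 11 held, and Gnaq (0.141 without TFR replicate 2), Hsd3b7 (0.17 without Treg replicate 2), Il7r (0.225 without TFR replicate 1), Klf12 (0.131 without TFR replicate 2) and Klf13 (0.0873 without Treg replicate 2) did not. Between TFR cells of the tissues, Cxcr5 held, while Rgs16 (0.104 without pLN replicate 1), Gna12 (0.0925 without pLN replicate 2) and Ccr7 (0.0556 without pLN replicate 1) did not. Without slide 4, Gna12 (adjusted p 0.0696), Gnaq (0.243), Rgs16 (0.0991), Hsd3b7 (0.0953), Il7r (0.164), Klf12 (0.151) and Klf13 (0.246) were lost in PP TFR against Treg cells, each with the same sign. The same was so for Rgs16 (0.0759), Hsd3b7 (0.0577) and Klf13 (0.0778) in pLN d12 TFR against Treg cells and for Gna12 (0.102) and Rgs16 (0.148) between TFR cells of the tissues.

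**Figure D5:**
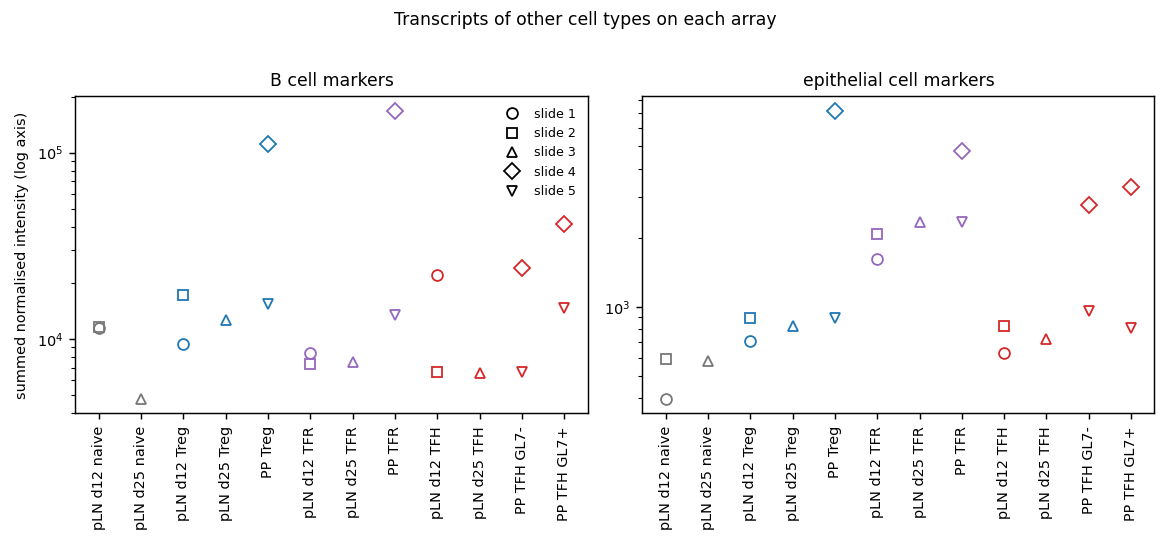
Summed normalised intensity (log axis) of the tested B cell markers and epithelial markers on each array, with slides as mark shapes. Slide 4 arrays (diamonds) reach 167655 for B cells and 7146 for epithelial cells, against at most 21885 and 2350.0 on other slides.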

How the data were processed

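Sorted CD4 T cells were measured on 20 single-colour Agilent mouse arrays with 4 features per probe. The deposited scanner files hold intensity values per feature and other quality marks (outlier and above-background marks), made by the authors with Agilent Feature Extraction 10.7.3.1 per the submitters' processing notes. The authors' value table holds linear intensity, which they averaged over features, quantile normalised, scaled and floored, and it served as an alternative. Here, features marked as outliers, outside 1.42 interquartile ranges or with a pixel CV above 0.5 were dropped, the geometric mean was taken, arrays were quantile normalised, the 75th percentile was scaled to 1500 and values were floored at 20. The rebuilt values differed from the deposited intensity table by a median of 0.0347 to 0.0362 (log2) per array. A probe was detected with at least 3 of 4 features well above background (43.0% to 58.0% of probes per array), and the 22264 of 39429 probes that both arrays of some group detected were tested. The number of arrays limits the precision. Replicate numbers were given in deposition order, but those of the groups of 2 arrays coincide with the slide, so pairing was tested through slide as a block.

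A linear model with 1 mean per group (8 residual degrees of freedom) was fitted with limma 3.58.1 in R 4.3.3 (lmFit, eBayes, Benjamini-Hochberg adjustment), and intervals are 95% intervals of single results. Checks and plots used Python 3.11.15 and matplotlib 3.10.9. The fit was tested on simulated data in which 200 probes changed by 1.5, 2 or 3 on the log2 scale. In pLN d12 TFH against naive cells, 47.5%, 65% and 83% of these were called. Between TFR cells of the tissues, 43.5%, 64.5% and 85.5% were. For the difference between tissues of TFR minus Treg, 11%, 30% and 72.5% were, so many real changes of such size would be missed there. Alternatives were 75th percentile scaling without quantile normalisation, normexp, the authors' table, no filter, slide as a fixed or random block, RNA input, only the compared groups, leaving out slide 4 and leaving out each array. All 6 egress genes were named in every comparison, with up to 4 called genes of each pathway list by largest difference and the 3 genes most like each in group means. At least N-fold sets the brighter group against the lowest signal well above background. The genes, lists and tests were chosen with earlier results of these data known. The 6 egress genes were found by the symbol in the scanner files. Other genes took the RefSeq symbol where the accession matched (27508 probes) and the scanner file's symbol elsewhere. Promoter sequences are RefSeq's (GRCm38.p6). Genes that these rules pick but the text does not name are not reported here.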

Additional observations from a re-analysis of the deposited data

How the results depend on the processing

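Of the 24 calls of the 6 genes, 10 held under every alternative and none changed sign. Main counts of called genes moved as follows. With slide as a fixed block, 3 genes instead of 1 were called in pLN d12 TFR against Treg cells, 4 instead of 2 in PP, 2 instead of 0 for the difference between tissues of TFR minus Treg and 3 instead of 0 for TFH minus naive less TFR minus Treg, and with RNA input as a covariate these were 3, 4, 2 and 2. The last was 1 with 75th percentile scaling and 1 with normexp. Fits of the compared groups alone called 0 genes in pLN d12 TFR against TFH (3 in all groups), PP TFR against Treg, TFH between tissues and TFR between tissues, where fewer arrays set the spread. Without slide 4, the counts were 1 for pLN d12 TFR against TFH, 0 instead of 1 for TFH between tissues, 3 instead of 5 for TFR between tissues and 1 instead of 2 for d25 TFR against Treg. Without the filter on dim probes, they were 0, 2 and 1 for the last 3 of these. TFH between tissues had 0 with slide as a random block. Leaving out each array gave 0 to 2 for pLN d12 TFR against TFH, 2 to 3 for TFR between tissues, 0 to 1 for TFH between tissues and 0 to 1 for TFH minus naive less TFR minus Treg. Rgs1 in TFR cells between tissues (-0.53, not called) turned to 0.14 without slide 4, and lay between -1.20 and 0.14 when each array was left out. Where no reason is given, the cause was not tested. Differences of the 6 genes under 0.5 changed sign in 58 of 529 alternative values. The labels give no replicate numbers that pair arrays, and slide as a block is the paired fit within a tissue and day for groups of 2 arrays. It leaves differences between d25 groups as they were and changes only the spread they are set against. All 6 genes were well above background on every array. The model has 8 residual degrees of freedom.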
